A study of Mus musculus with 48 samples.

Results

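The 10 genes described here belong to the mammalian circadian clock: the activators Clock and Arntl (whose protein is also called BMAL1), the repressors Per1, Per2, Per3 and Cry1, the nuclear receptors Nr1d1 and Nr1d2 (REV-ERBα and REV-ERBβ), the output factor Dbp and the repressor Bhlhe40 (DEC1). They were taken by symbol from a table of read counts for 49671 genes, and all 10 were among the 12203 genes with enough reads to test. The cells were NMM, a mouse melanoma line with a mutated NRAS gene, sequenced after culture with 1 of 11 cytokine treatments or with none. The treatments were IFNα1 (5000 U/ml), IFNγ (0.01, 1 or 100 ng/ml), TNFα (0.1, 1 or 10 ng/ml), IFNγ at 100 ng/ml together with TNFα at 10 ng/ml (the combination below), TGFβ (10 ng/ml), IL-2 (6000 U/ml) and lymphotoxin α1β2 (2 ng/ml). Each of these 12 groups was sampled once at 2, 6, 12 and 24 h, so that the 48 libraries hold 1 library per group and duration. All groups share the line and its NRAS mutation, and no group of normal melanocytes was analysed here. The 4 libraries of a group are therefore durations, not replicates of one condition, and nothing in the labels says whether they came from separate cultures. A p-value below measures only the spread between these libraries after the terms for stimulus and duration.

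In the clock, CLOCK and BMAL1 bind E-box elements as a pair and switch on the Per, Cry, Nr1d and Dbp genes. PER and CRY proteins return to the nucleus and block that pair, REV-ERB proteins repress Arntl, and DBP activates genes through D-box elements. Most cultured cells carry this loop, but each cell keeps its own phase unless a common signal such as serum sets them together, and Per1 and Bhlhe40 are also early response genes of such signals.

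Promoter sequence is shown first for the 3 members whose 250 bases upstream of a RefSeq start (GRCm38.p6) hold an E-box or a D-box. Whether these elements bear on the values below was not tested. The sequences run 5′ to 3′ on the gene's own strand and end at the base before the start, and capitals mark the E-box CACGTG in Per1 and Cry1 and the D-box TTATGTAA in Per3.
Per1, chr11:69098699-69098948, plus strand: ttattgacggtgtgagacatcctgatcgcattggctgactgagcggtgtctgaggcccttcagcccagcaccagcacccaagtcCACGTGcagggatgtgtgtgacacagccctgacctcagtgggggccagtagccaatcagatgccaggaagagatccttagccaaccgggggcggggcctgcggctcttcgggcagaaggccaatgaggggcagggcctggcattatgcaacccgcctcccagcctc
Cry1, chr10:85185055-85185304, minus strand: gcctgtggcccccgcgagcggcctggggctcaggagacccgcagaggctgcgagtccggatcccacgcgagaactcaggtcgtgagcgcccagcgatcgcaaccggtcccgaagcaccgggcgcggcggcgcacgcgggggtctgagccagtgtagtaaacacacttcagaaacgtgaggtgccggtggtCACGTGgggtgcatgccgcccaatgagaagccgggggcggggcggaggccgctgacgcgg
Per3, chr4:151044666-151044915, minus strand: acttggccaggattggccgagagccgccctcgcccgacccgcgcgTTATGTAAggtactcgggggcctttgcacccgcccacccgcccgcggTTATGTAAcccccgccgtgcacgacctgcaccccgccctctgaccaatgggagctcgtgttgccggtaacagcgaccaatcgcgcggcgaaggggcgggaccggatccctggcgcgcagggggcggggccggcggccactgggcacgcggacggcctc
RefSeq had an entry for 8 of the 10 members, 12 windows in all; Per2 and Bhlhe40 had none in the table used here. Both strands were searched, and none of the matches overlapped a match of another motif. The E-box was present in 6.02% of 32851 promoter windows of the same length, and among the members only in Per1, at -166, and Cry1, at -60, relative to the start. The other Per1 window, chr11:69099902-69100151, held no E-box. The D-box in either spelling, TTATGTAA or TTACGTAA, was present in 0.931% of windows, and Per3 carried 2 copies, at -205 and -158. The window of Dbp, chr7:45704997-45705246, held neither element. The core TAGGTCA of a ROR and REV-ERB response element (2.23% of windows) and the cAMP response element TGACGTCA (1.55%) matched no member, and the GC box GGGCGG (32.7%) matched 7 of the 8. These are matches of letters, not measured binding.

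Each library held 5612907 to 9663207 reads counted to genes, so 1 read was worth 0.105 to 0.179 CPM, read counts rescaled so that libraries of different depth can be compared. Members at high level rest on many reads, whereas Per2 had 0 to 22 reads in unstimulated cells and cells with TNFα at 10 ng/ml. Of 10 melanocyte genes, only Mitf had a median above 1 CPM (3.52 to 12.8 CPM over the 48 libraries), while Dct and Mlana were at 0 and the pigment cell label rests on the line's description. The fibroblast genes Dcn and Pdgfra were present and summed, with the others of that list, to 14.9 to 68.7 CPM. That sum was 21.6 to 34.6 CPM in the 12 libraries with no stimulus, IL-2 or lymphotoxin, 24.6 to 68.7 CPM with TNFα at 10 ng/ml, 17.7 to 32.3 CPM with the combination and 21.3 to 49.3 CPM with TGFβ. The endothelial list, mostly Cdh5, summed to 3.58 to 7.39 CPM in the quiet libraries and reached 26.6 CPM with TGFβ, 18.5 CPM with TNFα at 10 ng/ml and 14.4 CPM with the combination. Cdh5 was called higher with all 3, by 1.25, 0.88 and 0.93, and from 12 to 24 h by 0.55. The macrophage list, mostly Cd68 with Adgre1 at 0, summed to 1.75 to 5.38 CPM, and 6 of 7 T and NK cell genes were at 0. The part of these genes in the results was not tested. In bulk RNA, fewer cells of a type and less RNA per cell cannot be told apart.

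Per kilobase of exon, Nr1d1 was the most abundant member (chr11:98767932-98775333, GRCm38, minus strand), with a median of 38 CPM per kb. Its paralog Nr1d2 (chr14:18204054-18239127, minus) had a median of 24.2 CPM per kb. Over the 48 libraries the ranges of the pair, 29.9 to 52.3 for Nr1d1 and 18.9 to 40.7 for Nr1d2, overlapped. Of the activators, Clock (chr5:76209868-76304792, minus) stood at 11.6 CPM per kb and Arntl (chr7:113207465-113314126, plus) at 7.71 CPM per kb. Bhlhe40 (chr6:108660629-108666925, plus) had 9.29 and Cry1 (chr10:85131700-85185064, minus) 8.41 CPM per kb. Neighbours in this middle stretch, from Clock to Per1, overlapped in range. Per1 (chr11:69095217-69109960, plus) had a median of 6 and Dbp (chr7:45705088-45710203, plus) of 4.01 CPM per kb. The other 2 Per genes lay far lower, Per3 (chr4:151003652-151044665, minus) at 0.513 and Per2 (chr1:91415982-91459324, minus) at 0.219 CPM per kb. The lowest Dbp library, 1.14 CPM per kb, was above the highest of Per3, 1.11, whereas Per3 and Per2 overlapped.

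The members also differed in how far they moved. Dbp ranged from 3.41 to 26.9 CPM, 7.88-fold, Per3 from 1.84 to 10.7 CPM, 5.82-fold, and Bhlhe40 from 27.2 to 151 CPM, 5.54-fold. Per1 spanned 3.59-fold. Clock (135 to 230 CPM, 1.71-fold), Nr1d1 (1.75-fold), Cry1 (2-fold) and Nr1d2 (2.16-fold) moved least, and Arntl spanned 2.47-fold. Per2 ran from 0 to 3.16 CPM. Dbp shares 539 bases, 18% of its exons, with Sphk2 on the opposite strand, and Nr1d1 shares 8.55% with Thra. The kit keeps strand, but the strand setting of the counting is not given in the sources used here, so reads in those overlaps may belong to either gene. Bhlhe40 and Arntl share 2.51% and 0.439% of their exons with a gene on the opposite strand.

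**Figure D1:**
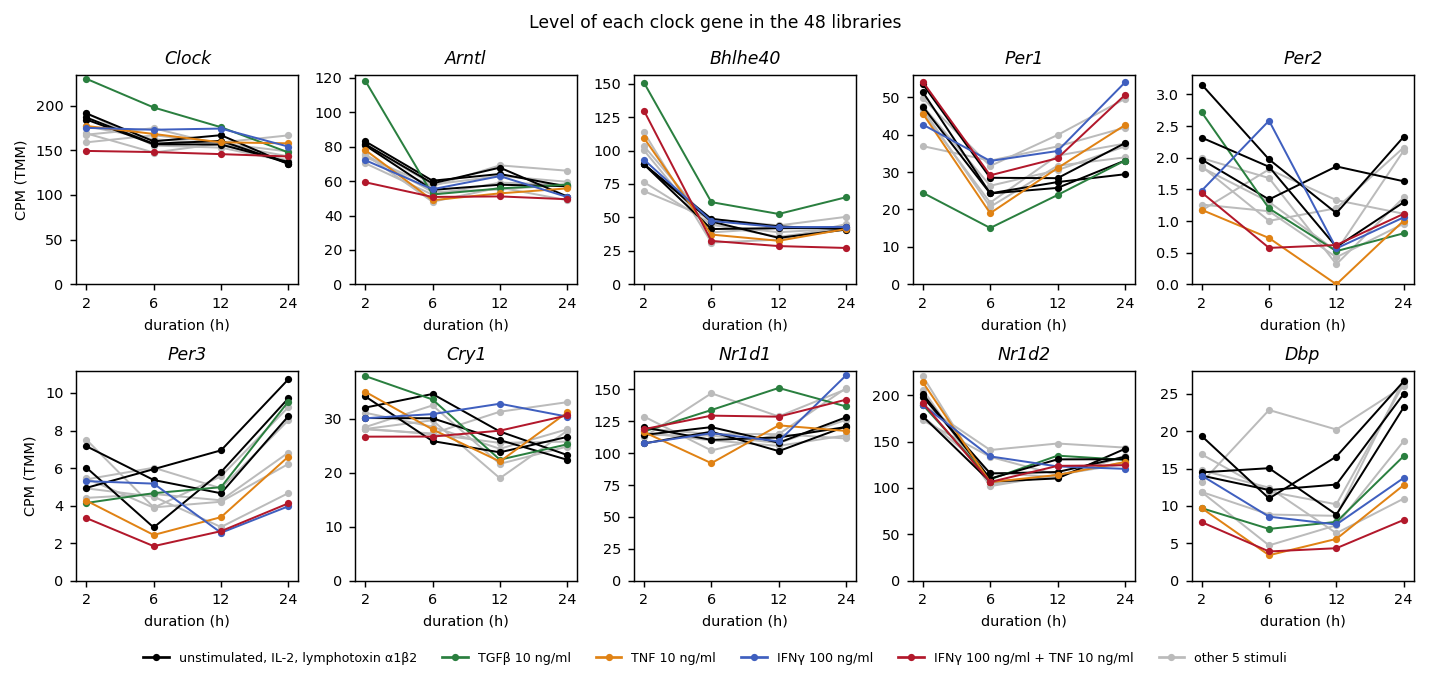
CPM of each of the 10 members in all 48 libraries (vertical axes, each gene on its own scale) against hours in culture; each line joins the 4 libraries of a group. Black lines are the groups with no stimulus, IL-2 or lymphotoxin, coloured lines TGFβ, TNFα 10 ng/ml, IFNγ 100 ng/ml and the combination, and grey lines the other 5 stimuli; Per1, Nr1d2, Arntl and Bhlhe40 start high at 2 h in most groups, and Dbp and Per3 end high at 24 h in most groups, with lower values under the combination.

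Levels were next compared between the durations in culture. In a model with a term for each stimulus and each duration (edgeR quasi-likelihood test, Benjamini-Hochberg adjustment, called at an adjusted p under 0.05), all 10 members differed among the durations, as did 86.9% of all genes tested, so this says little about clock genes as such. From 2 to 6 h, 7 of the 10 were called lower, against 27.5% of all genes, and none was called higher. From 6 to 12 h, 2 were called higher against 27.6% and 2 lower against 27.1%. From 12 to 24 h, 5 were called higher against 15.2% and 1 lower against 16.9%. Between 2 and 24 h, 3 were higher against 34.8% and 6 lower against 32.5%.

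The steps were also fitted in libraries with little or no response to their cytokine. The 12 libraries with no stimulus, IL-2 or lymphotoxin, called quiet here, were grouped because earlier results of these data showed few genes moving with either cytokine. No gene was called between either cytokine and no stimulus. IFNγ at 0.01 ng/ml also had 0 genes called but was not put in this set. Among the quiet libraries, 5 members were called lower from 2 to 6 h against 20.5% of 11545 genes tested, and 1, Bhlhe40, lower from 6 to 12 h against 21%. The 5 were Per1, Bhlhe40, Nr1d2, Arntl and Clock, all of them also among the 7 called lower over all libraries, whereas from 6 to 12 h no member was called in both fits. From 12 to 24 h, 5 were called higher against 12.9% and 2 lower against 13.9%. Over the whole span from 2 to 24 h, 2 were called higher against 25.7% and 6 lower against 24.6%.

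Of the activators, Arntl was highest at 2 h in most groups and changed by smaller steps after. Its lowest, median and highest values over the 12 groups were 59.3, 76.8 and 118 CPM at 2 h, 48, 54.3 and 60.2 CPM at 6 h, 51.1, 58.5 and 69.1 CPM at 12 h, and 48.9, 56.9 and 66 CPM at 24 h. Only the combination, at 59.3 CPM, put a 2 h library within the 6 h range. The log2 change from 2 to 6 h was -0.54 ± 0.05 (SE here and below, adjusted p = 6.27e-11). In the quiet libraries Arntl then changed by -0.20 ± 0.07 from 12 to 24 h (adjusted p = 0.0237), a call that held in 2 of 6 alternatives. It was lost without IL-2 (-0.21, adjusted p = 0.0834) or lymphotoxin (-0.09, adjusted p = 0.477), with DESeq2 and without the filter on low counts. Clock, the other partner of that pair, declined by smaller steps, from a median of 177 CPM at 2 h to 161, 158 and 143 CPM at 6, 12 and 24 h. Its change from 2 to 24 h was -0.30 ± 0.04 (adjusted p = 9.18e-09) over all libraries and -0.46 ± 0.05 (adjusted p = 1.4e-10) in the quiet libraries, where the 2 h values of 184, 191 and 187 CPM all lay above the 24 h values of 137, 135 and 135 CPM. Ranges over all 12 groups overlapped between any pair of durations for Clock, 149 to 230 CPM at 2 h against 135 to 167 CPM at 24 h.

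Per1, a repressor and early response gene, fell early and rose in part later. Unstimulated cells had 51.4, 24.3, 27.3 and 29.4 CPM at 2, 6, 12 and 24 h, cells with IL-2 47.5, 24.3, 25.8 and 33.1 CPM, and cells with lymphotoxin 53.5, 28.5, 28.4 and 37.7 CPM. In each of these groups the 2 h library was the highest and the 24 h library the next highest. Over all libraries the change from 2 to 6 h was -0.84 ± 0.08 (adjusted p = 3.47e-11), followed by 0.32 ± 0.08 from 6 to 12 h (adjusted p = 0.00153) and 0.33 ± 0.08 from 12 to 24 h (adjusted p = 0.00148). In the quiet libraries the step from 6 to 12 h was 0.07 ± 0.09 and was not called (adjusted p = 0.534), and Per1 at 24 h was still -0.60 ± 0.08 from its 2 h level (adjusted p = 4.79e-08). There the last step was 0.30 ± 0.09 (adjusted p = 0.00776). It lost its call without the IL-2 libraries (0.28, adjusted p = 0.0711) or the lymphotoxin libraries (0.24, adjusted p = 0.127), and with DESeq2.

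Per3 was highest at the end of the series. Its median over the 12 groups was 5.13, 4.55 and 4.47 CPM at 2, 6 and 12 h and 7.69 CPM at 24 h. In quiet libraries the 3 values at 24 h were 9.72, 8.77 and 10.7 CPM, above every earlier quiet library, of which the highest was 7.17 CPM. The step from 12 to 24 h was 0.75 ± 0.13 over all libraries (adjusted p = 1.83e-05) and 0.75 ± 0.19 in the quiet ones (adjusted p = 0.00304). Per2 had medians of 1.85, 1.32, 0.579 and 1.21 CPM, with changes of -0.91 ± 0.24 from 6 to 12 h (adjusted p = 0.00177) and 0.90 ± 0.24 from 12 to 24 h (adjusted p = 0.0039). In the 5 groups that responded least (no stimulus, IL-2, lymphotoxin, and the lowest doses of IFNγ and TNFα), the change of Per2 from 6 to 12 h was -0.52 and was not called (adjusted p = 0.179). Cry1, the partner of the PER proteins, had medians of 30.1, 29.1, 25 and 27.2 CPM and a change of -0.23 ± 0.07 from 6 to 12 h (adjusted p = 0.00732). In the quiet libraries Cry1 changed by -0.41 ± 0.10 from 2 to 24 h (adjusted p = 0.000848).

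The nuclear receptors parted ways. Nr1d2 had a lowest value of 173 CPM and a median of 191 CPM at 2 h, and a median of 110 CPM and a highest value of 141 CPM at 6 h. The 2 h and 6 h ranges did not overlap in these 12 groups, and the change was -0.75 ± 0.05 (adjusted p = 3.07e-16). Nr1d1 changed little, with medians of 116, 115, 114 and 127 CPM and a single called step of 0.17 ± 0.05 from 12 to 24 h (adjusted p = 0.0108). Nr1d2 stayed below its 2 h level, with medians of 116 CPM at 12 h and 131 CPM at 24 h.

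Dbp, a direct target of the CLOCK pair, was lowest in the middle of the series. Unstimulated cells had 14.5, 15.1, 8.84 and 23.2 CPM at 2, 6, 12 and 24 h, and cells with lymphotoxin 14.1, 12.1, 12.9 and 25 CPM. The 24 h library was the highest of its group in both, and cells with IL-2 likewise had their highest value, 26.7 CPM, at 24 h. The step from 12 to 24 h was 1.04 ± 0.14 over all libraries (adjusted p = 6.18e-07), 0.97 ± 0.15 in quiet ones (adjusted p = 4.72e-05), and the call held under each of the 17 alternatives run for all libraries. Bhlhe40, a repressor of the CLOCK pair, was the member with the steepest early fall, from a median of 96.6 CPM at 2 h to 44.6, 40.5 and 42.1 CPM. Its lowest 2 h library, 69.6 CPM, was above its highest 6 h library, 61.4 CPM, and the change was -1.22 ± 0.09 (adjusted p = 1.14e-13). In quiet libraries, where the 2 h values were 89.5, 89.6 and 89.8 CPM, it was -0.97 ± 0.07 (adjusted p = 2e-13).

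Several smaller steps were close to the threshold and lost their call when any 1 of several groups was left out. Per3 from 2 to 6 h (-0.32 ± 0.13, adjusted p = 0.0399) was not called without the unstimulated libraries (-0.26, adjusted p = 0.102) or any 1 of 5 other groups. In unstimulated cells the 6 h value was 2.84 CPM against 5.37 CPM with IL-2 and 5.94 CPM with lymphotoxin. Arntl from 6 to 12 h (0.14 ± 0.06, adjusted p = 0.0355) lost its call without any 1 of 9 groups, furthest without TNFα at 1 ng/ml (0.12, adjusted p = 0.0815). Between 2 and 24 h, Per1 (-0.19 ± 0.08, adjusted p = 0.0322) was not called without the unstimulated libraries (-0.13, adjusted p = 0.136) or any 1 of 5 other groups, but it was -0.52 (adjusted p = 6.03e-08) in the 5 groups that responded least and -0.60 in the quiet libraries. Over the same span Cry1 (-0.17 ± 0.07, adjusted p = 0.036) was not called without TGFβ (-0.13, adjusted p = 0.118) or any 1 of 6 other groups, and was -0.31 (adjusted p = 0.00169) in the 5 groups that responded least. The libraries of 2 and 6 h and those of 12 and 24 h each used the same 24 index sequences, so each index recurs once early and once late, and a change from 6 to 12 h, or from 2 to 24 h, cannot be told apart from that split. The indexes of 2 h recur at 12 h and those of 6 h at 24 h. The steps from 2 to 6 h and from 12 to 24 h therefore also compare different index sequences, and cannot be told apart from that difference. The share of reads from mitochondrial genes also fell with time, from 1.15 to 1.44% at 2 h to 0.513 to 0.964% at 24 h. Its part in these changes was not tested.

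**Figure D2:**
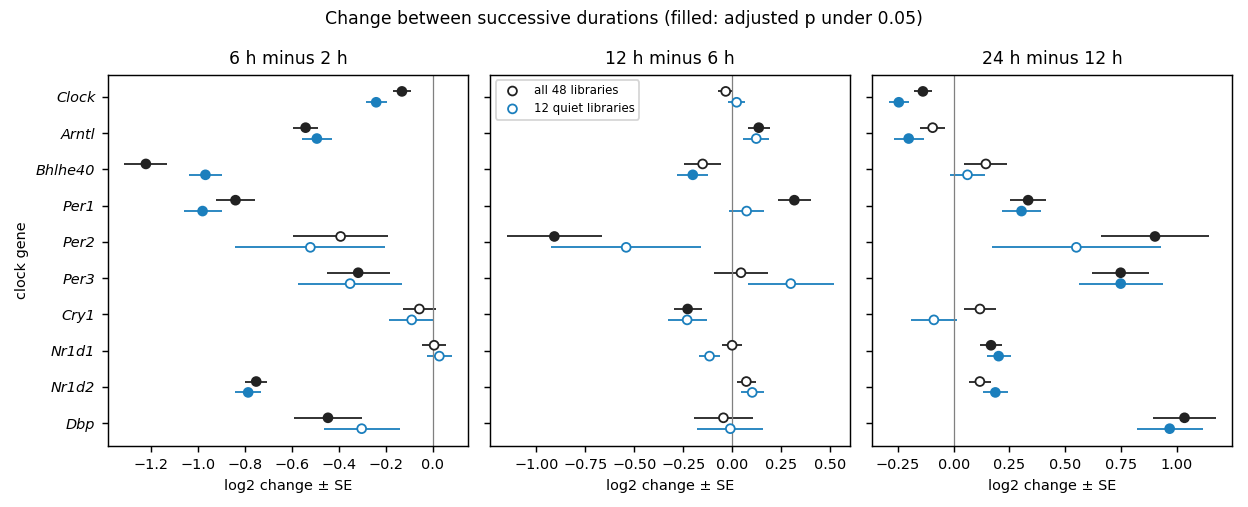
Log2 change of each member (vertical axis) from 2 to 6 h, 6 to 12 h and 12 to 24 h, as fitted value ± SE over all 48 libraries and over the 12 quiet libraries; filled points were called. Bhlhe40, Per1, Nr1d2 and Arntl fell at the first step in both fits, and Dbp and Per3 rose at the last.

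TNFα was tested at 3 doses, each against no stimulus as the mean over the 4 durations, and Dbp and Per2 were lower at the top dose. Unstimulated cells had 14.5, 15.1, 8.84 and 23.2 CPM of Dbp at 2, 6, 12 and 24 h. With 10 ng/ml there were 9.71, 3.41, 5.59 and 12.8 CPM, with 1 ng/ml 11.8, 4.73, 7.42 and 18.7 CPM, and with 0.1 ng/ml 11.9, 8.86, 8.68 and 26.9 CPM. At 10 and 1 ng/ml, Dbp was below all 3 quiet libraries at each of the 4 durations, and at 0.1 ng/ml at 3 of them. At 10 ng/ml, 2 members were called lower, against 7.3% of all genes, and none higher. Dbp changed by -1.02 ± 0.26 (adjusted p = 0.00502). Without the 6 h libraries, where it was lowest and where the unstimulated value of 15.1 CPM was above those with IL-2 (11 CPM) and lymphotoxin (12.1 CPM), the change was -0.71 and was not called (adjusted p = 0.0848). With the IL-2 libraries as the reference in place of no stimulus, it was -1.26 (adjusted p = 0.000627).

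Per2 had 22, 16, 7 and 18 reads in unstimulated cells at 2, 6, 12 and 24 h and 8, 6, 0 and 7 reads with TNFα at 10 ng/ml, or 63 against 21 reads in all. In CPM these were 3.16, 1.97, 1.12 and 2.33 against 1.18, 0.731, 0 and 1.01, and the 0 at 12 h allows up to 0.441 CPM (3 reads, counting error only). Each of the 4 libraries with TNFα was below the 3 quiet libraries of its duration. The change of Per2 was -1.55 ± 0.40 (adjusted p = 0.00518). With IL-2 as the reference it was -1.24 (adjusted p = 0.0344). Of 11 alternatives run for Per2, 8 kept the call and 3 did not (adjusted p = 0.00513 to 0.129). Per3 stood at 4.26, 2.44, 3.39 and 6.61 CPM with TNFα at 10 ng/ml. Those 4 values were also below the quiet libraries of each duration, but its change of -0.54 ± 0.23 was not called (adjusted p = 0.106). With IL-2 as the reference it was -0.66 (adjusted p = 0.0437).

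At 1 ng/ml no member was called by edgeR, against 2.72% of all genes; 2 members had an unadjusted p under 0.05, and DESeq2 called 0. Those were Per2 (-1.14 ± 0.36, adjusted p = 0.0833) and Dbp (-0.59 ± 0.24, adjusted p = 0.197). At 0.1 ng/ml edgeR called 0 members against 0.0164% of genes, with 0 at an unadjusted p under 0.05 and 0 by DESeq2. Over the doses 0.1, 1 and 10 ng/ml, the fitted values were -0.19, -0.59 and -1.02 for Dbp, -0.55, -1.14 and -1.55 for Per2, and -0.12, -0.23 and -0.54 for Per3. The fitted value of Per2 was negative for all 11 stimuli, with -0.30 for IL-2 and -0.51 for lymphotoxin, neither of them called, and its -0.55 at 0.1 ng/ml is close to the latter. The 10 and 1 ng/ml groups themselves did not differ by the test: edgeR called 0 members, against 0.238% of genes, 0 had an unadjusted p under 0.05, DESeq2 called 0, and Dbp differed by -0.43 ± 0.27 (adjusted p = 0.774). All 3 doses share the unstimulated libraries.

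**Figure D3:**
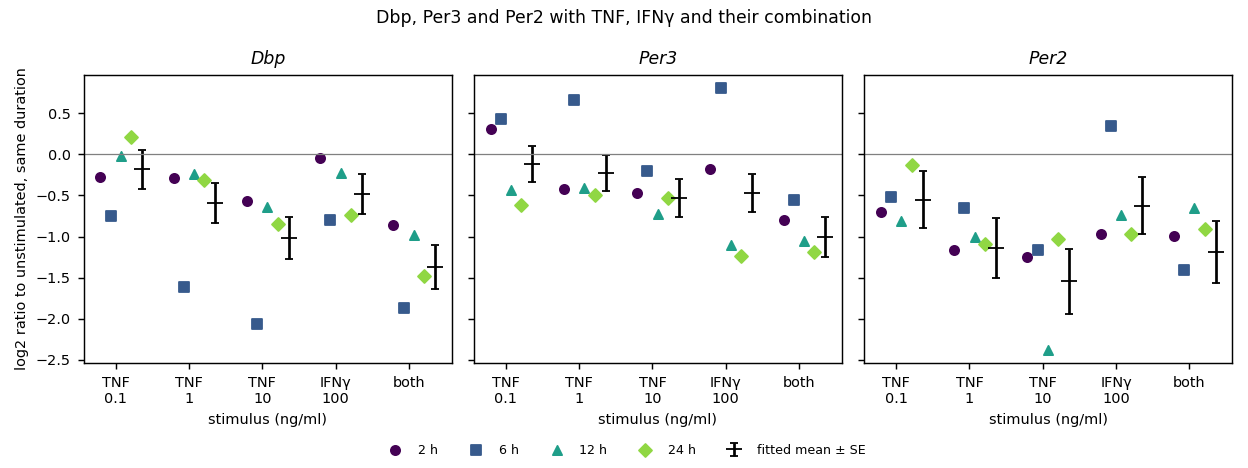
Log2 ratio to the unstimulated library of the same duration (vertical axis, prior count 2) for Dbp, Per3 and Per2 at 2, 6, 12 and 24 h with TNFα at 0.1, 1 and 10 ng/ml, IFNγ at 100 ng/ml and the combination; black marks are the fitted mean ± SE. Dbp lies below 0 at every duration with TNFα at 10 ng/ml and with the combination, with fitted means of -1.02 and -1.37.

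With the combination of IFNγ and TNFα, 5 of the 10 members were called where 42% of all genes were, so the count is near the background, and it ran from 2 to 6 when 1 duration was left out. Dbp had 7.83, 3.92, 4.35 and 8.13 CPM at 2, 6, 12 and 24 h, less than any quiet library at the same duration, and its 24 h value was below every quiet library of any duration. Per3 had 3.34, 1.84, 2.64 and 4.12 CPM, also below the 3 quiet libraries at each duration. Against no stimulus, 4 members were called lower, where 21.2% of all genes were, and 1 higher, where 20.9% were. Dbp changed by -1.37 ± 0.27 (adjusted p = 7.26e-05), a call that held under all 12 alternatives run (-1.61 to -1.16). Per3 changed by -1.01 ± 0.24 (adjusted p = 0.00079) and was not called only in the 2 h and 6 h libraries alone (-0.76, adjusted p = 0.166). Per2 had 10, 5, 4 and 10 reads at the 4 durations, 29 in all against 63 without stimulus, and changed by -1.19 ± 0.37 (adjusted p = 0.00916). Per2 kept this call in 8 of 12 alternatives. It lost the call when 6 h was left out (-1.02, adjusted p = 0.0661) or with IL-2 as the reference (-0.89, adjusted p = 0.0662). The call was also lost in the 12 h and 24 h libraries alone and without the duration term.

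Per1 went the other way from Per2 and Per3, with 54.1, 29.1, 33.7 and 50.6 CPM under the combination, above the quiet libraries at each duration. Its change of 0.34 ± 0.14 (adjusted p = 0.0441) was small and rested on the late libraries: without 24 h it was 0.20 (adjusted p = 0.363), and without 6 h (0.38, adjusted p = 0.0717) or 12 h (0.36, adjusted p = 0.126) it was not called either. Arntl, at 59.3, 50.8, 51.1 and 49.5 CPM, was below the quiet libraries at each duration. Its change was -0.23 ± 0.10 (adjusted p = 0.0469), and the call held in 1 of the 12 alternatives and was lost when any of the 4 durations was left out (adjusted p = 0.0814 to 0.129). Clock stood at 149, 148, 146 and 143 CPM, where cells without stimulus went from 184 to 137 CPM, but this difference in slope was not called (0.09 ± 0.04 per doubling of hours, adjusted p = 0.0653). Adding TNFα to IFNγ at 100 ng/ml lowered 2 members, against 5.42% of genes: Dbp by -0.88 ± 0.28 (adjusted p = 0.0265) and Clock by -0.20 ± 0.07 (adjusted p = 0.0375). Dbp lost this call when any 1 duration was left out (adjusted p = 0.0649 to 0.119), and Clock without 6 h (-0.19, adjusted p = 0.208) or 12 h (-0.19, adjusted p = 0.263). Adding IFNγ to TNFα at 10 ng/ml changed no member by edgeR, against 14% of genes, with 3 at an unadjusted p under 0.05 and 0 by DESeq2; the difference was -0.35 ± 0.29 for Dbp (adjusted p = 0.467) and -0.47 ± 0.26 for Per3 (adjusted p = 0.225).

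With IFNγ alone, no member was called as a mean over the durations. At 100 ng/ml edgeR called 0 members against 22.1% of all genes, 2 had an unadjusted p under 0.05, and DESeq2 called 0. At 1 ng/ml edgeR called 0 against 15%, 2 had an unadjusted p under 0.05, and DESeq2 called 1, Per1 (adjusted p = 0.0437). The 2 were Per1 and Per3 at both doses, with Per1 at 0.34 ± 0.14 and 0.39 ± 0.14 and Per3 at -0.47 ± 0.23 and -0.47 ± 0.23, for 100 and 1 ng/ml. Dbp, at 14.1, 8.57, 7.52 and 13.8 CPM with 100 ng/ml, was below the quiet libraries from 6 h on (-0.48 ± 0.25, adjusted p = 0.156). The 100 and 1 ng/ml groups did not differ by the test in any of the 12203 genes, so the background was 0% and the members called were 0; 0 members and 303 genes had an unadjusted p under 0.05, and DESeq2 called 0 members. At 0.01 ng/ml the background was again 0%, with 0 members called by edgeR or DESeq2 and 0 at an unadjusted p under 0.05.

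Values in the late libraries departed from that mean. Over all durations, however, the change in the effect of IFNγ at 100 ng/ml with time was not called for Per3 (-0.38 ± 0.13 per doubling of hours, adjusted p = 0.0832). The late fit below uses the same libraries in which the departure was seen, so it is no separate test of it. Per1 with IFNγ at 100 ng/ml had 42.7 and 33 CPM at 2 and 6 h and 35.6 and 53.9 CPM at 12 and 24 h, where unstimulated cells had 51.4, 24.3, 27.3 and 29.4 CPM. Per3 at the same dose had 5.3 and 5.17 CPM at 2 and 6 h, and 2.56 and 3.97 CPM at 12 and 24 h against 5.79 and 9.72 CPM without stimulus. Both late Per3 values were below all quiet libraries of their duration, and both late Per1 values were above them. In a fit of the 12 h and 24 h libraries alone, IFNγ at 100 ng/ml changed 2 members, against 27.8% of genes: Per1 by 0.65 ± 0.12 (adjusted p = 0.000262) and Per3 by -1.25 ± 0.21 (adjusted p = 7.5e-05). IFNγ at 1 ng/ml changed 4, against 24%: Per1 (0.66 ± 0.12, adjusted p = 0.000332), Per3 (-1.04 ± 0.21, adjusted p = 0.000588), Dbp (-0.88 ± 0.25, adjusted p = 0.0122) and Cry1 (0.42 ± 0.15, adjusted p = 0.0444). Cry1 without stimulus went from 26.1 to 22.4 CPM between 12 and 24 h, and with IFNγ at 1 ng/ml it had 31.3 and 33.1 CPM. In the same late libraries, TNFα at 10 ng/ml changed 3 members against 19.6%, namely Per3 (-0.64 ± 0.20, adjusted p = 0.0243), Dbp (-0.80 ± 0.24, adjusted p = 0.0232) and Per1 (0.37 ± 0.13, adjusted p = 0.0375). The combination changed 4 against 43.8%, with Dbp at -1.35, Per3 at -1.19, Per1 at 0.58 and Bhlhe40 at -0.60 ± 0.12 (adjusted p = 0.000258).

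**Figure D4:**
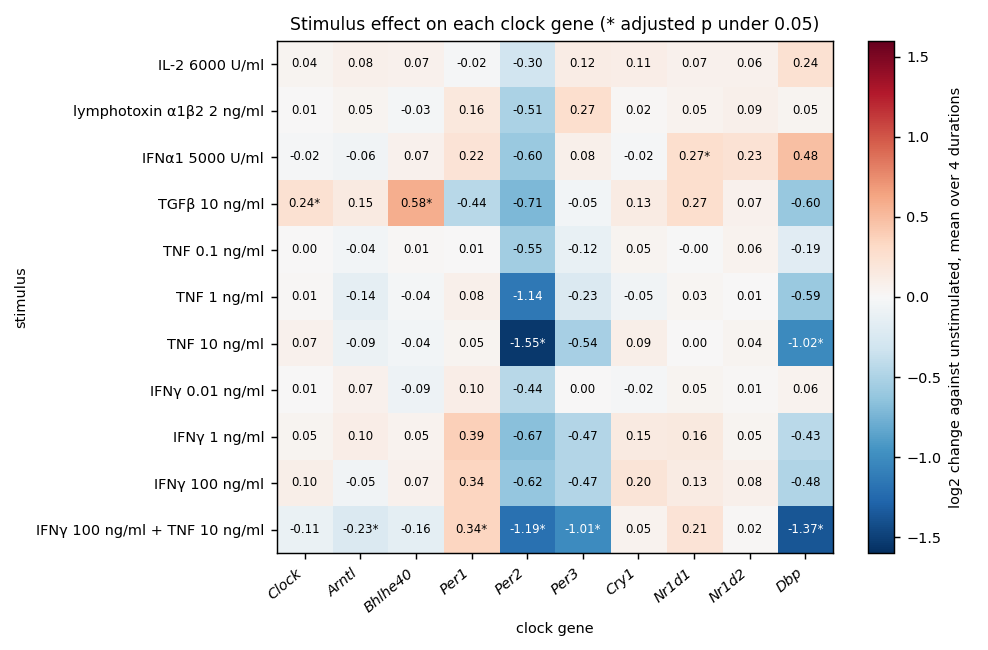
Fitted log2 change of the 10 members (columns) for each stimulus against no stimulus (rows), as the mean over the 4 durations. Colour gives the size and direction, and a star marks an adjusted p under 0.05. Stars fall on Dbp and Per2 with TNFα at 10 ng/ml, on 5 members with the combination, on Bhlhe40 and Clock with TGFβ and on Nr1d1 with IFNα1.

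TGFβ was followed by higher Bhlhe40 and Clock. Bhlhe40 had 151, 61.4, 52.6 and 65.1 CPM at 2, 6, 12 and 24 h, against 89.5, 41.3, 42 and 42.5 CPM without stimulus, and was the highest of all 12 groups at each duration. Clock had 230, 198, 176 and 148 CPM against 184, 157, 156 and 137 CPM, above the 3 quiet libraries at each duration. As means over the durations, 2 members were called higher, against 5.02% of all genes, and none lower: Bhlhe40 by 0.58 ± 0.16 (adjusted p = 0.015) and Clock by 0.24 ± 0.07 (adjusted p = 0.017). Bhlhe40 was not called without 6 h (0.57, adjusted p = 0.1), 12 h (0.65, adjusted p = 0.0737) or 24 h (0.56, adjusted p = 0.123), and Clock not without 6 h (0.20, adjusted p = 0.222) or 12 h (0.26, adjusted p = 0.119). With IL-2 as the reference, 2 members were called, against 8.47% of genes: Bhlhe40 higher and Dbp lower. Clock lost its call there. Bhlhe40 and Clock each kept the call in 7 of 12 alternatives.

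Per1 with TGFβ had 24.5, 15.1, 23.9 and 33.1 CPM, the lowest of the 12 groups at 2, 6 and 12 h but within the quiet range of 29.4 to 37.7 CPM at 24 h. Its mean change of -0.44 was just outside the threshold (adjusted p = 0.0508), as was that of Nr1d1 (0.27, adjusted p = 0.0513). DESeq2 called both, with adjusted p = 0.0419 for Per1 and 0.0487 for Nr1d1. In the 2 h and 6 h libraries alone, 2 members were called, against 2.83% of genes: Per1 at -0.91 ± 0.21 (adjusted p = 0.0272) and Clock at 0.32 ± 0.09 (adjusted p = 0.0483). Arntl had 118 CPM at 2 h, the highest of its 48 values, and 52.2, 55.7 and 57.9 CPM after, close to the unstimulated 54.9, 57.9 and 57 CPM. Dbp was below the quiet libraries at each duration with TGFβ (9.71, 6.93, 7.87 and 16.7 CPM) without being called (-0.60 ± 0.25, adjusted p = 0.146), while with IL-2 as the reference it was (-0.85, adjusted p = 0.0204).

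**Figure D5:**
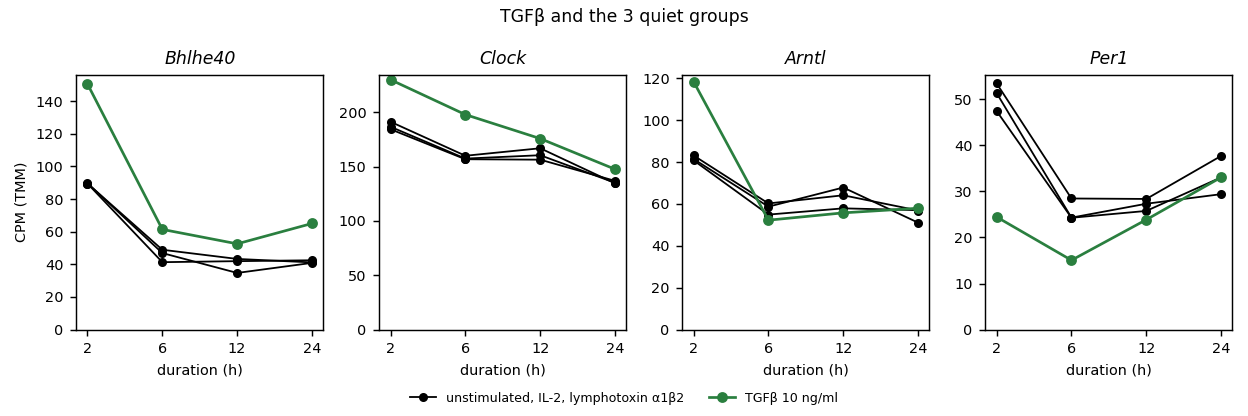
CPM of Bhlhe40, Clock, Arntl and Per1 (vertical axes) at 2, 6, 12 and 24 h with TGFβ and in the 3 quiet groups. Bhlhe40 and Clock lie above the quiet groups at each duration, Arntl at 2 h, where it had 118 CPM, and Per1 lies below them at 2, 6 and 12 h.

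IFNα1 raised 1 member, against 6.18% of all genes: Nr1d1, with 113, 147, 129 and 150 CPM at 2, 6, 12 and 24 h against 108, 117, 102 and 121 CPM without stimulus. The last 3 of these were above the quiet libraries of their duration. The change was 0.27 ± 0.09 (adjusted p = 0.0494), and it was not called with IL-2 as the reference (0.19, adjusted p = 0.192) or without 6 h (0.26, adjusted p = 0.178), 12 h (0.26, adjusted p = 0.2) or 24 h (0.27, adjusted p = 0.107). Nr1d2 had 190, 141, 148 and 144 CPM with IFNα1, also above the quiet libraries from 6 h on (0.23, adjusted p = 0.0697). IL-2 and lymphotoxin had a background of 0% each: edgeR and DESeq2 called 0 members and 0 members had an unadjusted p under 0.05, while 152 and 195 of all genes did.

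Whether a stimulus changed the course over time was tested as the change in its effect for each doubling of hours, relative to no stimulus. With IFNγ at 100 ng/ml, Per1 was the 1 member with a higher slope, against 3.47% of genes (0.30 ± 0.08 per doubling, adjusted p = 0.0133). The slope of Per3 at that dose was not called (-0.38 ± 0.13, adjusted p = 0.0832). With TGFβ, Per1 was again the 1 member with a higher slope, against 0.697% (0.35 ± 0.08, adjusted p = 0.015). With the combination, Bhlhe40 had a lower slope, where 9.37% of genes did (-0.35 ± 0.09, adjusted p = 0.00835): it stood at 130 CPM at 2 h, above the quiet libraries, and at 32.5, 28.6 and 27.2 CPM after, below them. The 2 h libraries carry that last result, since without them the slope was -0.15 (adjusted p = 0.49), and without 12 h it was -0.33 (adjusted p = 0.0887). Both Per1 slopes lost their call without 2, 12 or 24 h: 0.23, 0.31 and 0.28 (adjusted p = 0.344, 0.0515 and 0.424) for IFNγ, and 0.42, 0.35 and 0.33 (adjusted p = 0.308, 0.0878 and 0.646) for TGFβ. No member's slope was called for TNFα at 10 ng/ml, against 2.43% of genes, or for IFNα1, against 0.828%; in each, edgeR called 0, 1 member had an unadjusted p under 0.05, and DESeq2 called 0.

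Across the 48 libraries the members fell into sets that moved alike; these are descriptions, since the libraries share durations, stimuli and depth. Per3 and Dbp had a Pearson correlation of log2 CPM of 0.78, and of 0.668 after the mean of each duration was removed. Per2 followed Dbp at 0.557 and 0.595 on the same 2 measures. Per1, although of the same family as Per3, correlated with it at 0.182, and at -0.233 with the duration means removed. Nr1d2 and Bhlhe40 had 0.863, Arntl and Bhlhe40 0.773, and Nr1d2 and Arntl 0.748, but with duration means removed these became 0.326, 0.325 and 0.119. Arntl and Clock kept 0.555 of 0.674. The paralogs Nr1d1 and Nr1d2 had 0.058, and 0.369 with the duration means removed.

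For each member with a mean of at least 5 CPM, the genes most like it over the 48 libraries were picked by the same correlation. All tested genes except predicted ones were candidates, and Per2, with a mean of 1.37 CPM, was left out. For Dbp they were Ermp1 (0.867), Prex1 (0.862) and Sntb2 (0.836), and for Per3 Fam168a (0.812), Zmym3 (0.802) and Ppox (0.8). For Bhlhe40 they were Vasn (0.936), Klf9 (0.902) and Nr4a3 (0.9). For Nr1d2 they included Srsf5 (0.919) and Serinc3 (0.901). Per1 was most like Pi15 (0.829), March7 (0.802) and Nfil3 (0.801), the last a repressor that competes with DBP for D-boxes. For Arntl, Clock, Cry1 and Nr1d1 the first gene was Tlk1 (0.829), Luzp1 (0.82), Tsc22d1 (0.696) and Galns (0.635).

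The remaining clock genes were read from a list of 11, of which 9 could be tested. With the combination, Tef, which like Dbp encodes a D-box activator, fell by 0.62 on the log2 scale (SE 0.11, adjusted p = 1.21e-05). Bhlhe41, the paralog of Bhlhe40, changed by -0.46 ± 0.18 (adjusted p = 0.0378) and Rorb by -0.29 ± 0.10 (adjusted p = 0.0121). Arntl2, the paralog of Arntl, rose by 1.04 ± 0.14 (adjusted p = 2.24e-07) and Nfil3 by 0.70 ± 0.16 (adjusted p = 0.00045). In all, 2 of the 9 rose and 3 fell, where 20.9% and 21.2% of all genes did, with a median of -0.20 against -0.03 for all genes. IFNγ at 100 ng/ml raised Arntl2 (1.19 ± 0.14) and Nfil3 (0.65 ± 0.16, adjusted p = 0.00272), and 0 of 9 fell, against 12.8% and 9.3% of all genes. With TNFα at 10 ng/ml and with TGFβ, 0 of the 9 were called. From 2 to 6 h, Nfil3 (-1.07 ± 0.09), Cry2 (-0.80 ± 0.10), Rora (-0.68 ± 0.07) and Tef (-0.60 ± 0.06) fell and Arntl2 (0.26 ± 0.09) rose, or 4 and 1 of 9 against 27.5% and 29.6% of all genes. From 12 to 24 h, Tef (0.55 ± 0.06) and Cry2 (0.47 ± 0.10) rose and 0 fell, against 15.2% and 16.9%.

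Genes that turn clock proteins over or phosphorylate them were 16 in number and all tested. From 2 to 6 h, 9 fell and 1 rose, where 27.5% and 29.6% of all genes did, among them the kinase gene Gsk3b at -0.31 ± 0.03 (adjusted p = 4.47e-11), with a list median of -0.12 against 0.00 for all genes. With TGFβ 3 rose and 0 fell, against 5.02% and 3.25% of all genes, among them Fbxw7 (0.53 ± 0.12, adjusted p = 0.00228) and the casein kinase gene Csnk1e (0.23 ± 0.06, adjusted p = 0.01), with TNFα at 10 ng/ml 0 were called, and with the combination 2 rose and 2 fell, against 20.9% and 21.2%. Of 21 genes known as outputs of the clock in other tissues, 19 could be tested. With the combination 8 rose and 4 fell, against 20.9% and 21.2% of all genes, and the list median was 0.20 against -0.03. They included Noct, which encodes nocturnin, by 1.70 ± 0.15 (adjusted p = 2.55e-11), Nampt, for the rate-limiting enzyme of NAD salvage, by 1.08 ± 0.11 (adjusted p = 1.3e-10), and, downward, Klf15 at -1.06 ± 0.28 (adjusted p = 0.00252) and Id2 at -0.94 ± 0.14 (adjusted p = 4.93e-07). With TNFα at 10 ng/ml 6 rose and 2 fell, against 9.83% and 7.3%, and with TGFβ 3 rose and 2 fell, against 5.02% and 3.25%. From 2 to 6 h, 5 of them rose and 9 fell, against 29.6% and 27.5%, led by Id2 (-1.83 ± 0.07) and Usp2 (-1.61 ± 0.21), and from 12 to 24 h 4 rose and 4 fell, against 15.2% and 16.9%.

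Genes that respond early to serum, glucocorticoids or cAMP, signals that can reset the clock, were read from a list of 15, with 14 tested. From 2 to 6 h, 6 fell and 3 rose, against 27.5% and 29.6% of all genes: Nr4a1 changed by -1.86 ± 0.13 (adjusted p = 3.82e-14) and Sik1, a kinase gene that restrains resetting, by -0.78 ± 0.08 (adjusted p = 4.77e-10), whereas Egr1 changed by 0.95 ± 0.10 (adjusted p = 1.48e-09). With IFNγ at 100 ng/ml 6 rose and 0 fell, against 12.8% and 9.3%. With the combination 6 rose and 1 fell, against 20.9% and 21.2%, with Atf3 at 2.47 ± 0.21 (adjusted p = 6.53e-12) and Nr4a1 at -1.37 ± 0.22 (adjusted p = 5.67e-06). With TGFβ 1 rose and 2 fell, against 5.02% and 3.25%, one of them Dusp1 (-0.91 ± 0.17, adjusted p = 0.000223). Of 10 testable targets of the hypoxia pathway, whose factors bind E-box-like elements, 6 fell from 2 to 6 h and 0 rose, against 27.5% and 29.6% of all genes, while 3 rose and 3 fell with the combination, against 20.9% and 21.2%.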

How the data were processed

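Poly(A) RNA of NMM cells was sequenced from stranded libraries, per the labels' protocols. The authors deposited raw read counts per Ensembl gene, 1 column per library, from alignment with HISAT to GRCm38, per the submitters' processing notes; which program counted the reads, with which annotation and strand setting, is not given in the sources used here. A co-culture supernatant that the protocols mention was not analysed here. Doses were read from the sample titles, since a dose field in the labels reads otherwise for the lower doses.

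Genes were kept by edgeR's filter (about 10 counts at the median depth in at least 4 libraries, the size of a stimulus group, and a total of 15), which left 12203 of 49671. Counts were scaled by TMM factors, and CPM are relative to the scaled library size. The robust quasi-likelihood test of edgeR 4.0.16 (R 4.3.3) was fitted to all 48 libraries with a term for stimulus and one for duration, which is also the block that pairs the libraries: the labels give the duration, and the replicate number is the duration's rank. This left 33 residual degrees of freedom, and the model with a slope per stimulus over log2 hours left 22. Quiet libraries were fitted alone (11545 genes, 6 residual degrees of freedom). A stimulus effect is a mean over 4 durations, tests were two-sided, and p-values were adjusted by Benjamini and Hochberg over all genes of a comparison. SE was taken as log2 change over root F. Ratios per duration use a prior count of 2. DESeq2 1.42.0, RLE factors, no filter, no duration term, the compared groups alone, IL-2 as the reference and subsets of libraries were alternatives. The tests were checked on simulated counts. Coordinates are those of the deposited table. The members and gene lists were chosen with earlier results of these data known. The members were named in full; from the other lists, called genes were named by size of change, and up to 3 genes most like a member by correlation. One gene that this rule names is not reported here.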

Additional observations from a re-analysis of the deposited data

Results flagged for a closer look

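For each member and group, the 4 libraries were set against the median of the 12 libraries of their own duration, and a library was picked out where its gap to the nearest of the others took up more of the group's range than Dixon's 95% critical value for 4 values. Of 120 such sets of 4, 11 had one, where chance picks out about 1 in 20. The values below are log2 deviations of that library from its duration's median.

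Unstimulated cells, the reference of most comparisons, had 2 of the 11, both at 6 h: Per3 was low (-0.63, 23 reads) and Dbp was high (0.60, 122 reads). Dbp at 6 h with TNFα at 1 ng/ml was low (-1.02, 45 reads). Per2 at 24 h with TNFα at 0.1 ng/ml was high (0.70, 18 reads). Of the activators, Arntl at 2 h with TGFβ was high (0.62), and Clock at 2 h with TNFα at 0.1 ng/ml was slightly high (0.11). Bhlhe40 at 2 h with the combination was 0.42 above the median, whereas the other durations lay 0.46 to 0.63 below it. Nr1d1 stood apart at 24 h with IFNγ at 1 ng/ml (0.25) and at 2 h with the combination (0.03, where its other libraries were 0.16 to 0.18). Nr1d2 did at 12 h with TGFβ (0.22) and at 2 h with TNFα at 10 ng/ml (0.17).

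In 3 cases the course over time under a stimulus differed from that without, by edgeR's test of the slope: Per1 with IFNγ at 100 ng/ml (0.30 per doubling of hours), Per1 with TGFβ (0.35) and Bhlhe40 with the combination (-0.35).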

How the results depend on the processing

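Alternatives were run for the member values that were called. Of 730 such values with a direction, 730 kept it, and 602 kept their call. These were 510 of 568 between durations and 92 of 162 for stimuli and their slopes. Most alternatives for durations left out 1 group. Those for stimuli left out 1 or more durations or changed the reference, among others. The 2 shares are therefore not comparable. Changing the scaling moved the median of all genes by under 0.05, and 136 of 165 counts of called members stayed within 1.5 times. The others were as follows. Without the duration term, that is with no replicate block by duration, 0 members were called for IFNα1, TGFβ, TNFα 10 ng/ml and the combination against IFNγ, and 2 for the combination. Without the filter on low counts there were 0 for IFNα1, 3 for the combination, 0 for the combination against IFNγ and 2 for quiet libraries from 6 to 12 h. DESeq2 gave 4 for TGFβ, 1 for IFNγ 1 ng/ml, and 0 and 2 for the quiet steps from 6 to 12 h and 12 to 24 h. The compared groups alone gave 1 for TNFα 10 ng/ml, 3 for the combination and 1 for the combination against IFNγ. IL-2 as the reference gave 0 for IFNα1 and 1 for each of IFNγ 1 (Per1) and 100 ng/ml (Dbp). Libraries of 2 and 6 h alone gave 0 for IFNα1, TNFα 10 ng/ml and the combination against IFNγ, and 2 for the combination. Those of 12 and 24 h alone gave 1 for TGFβ, 4 and 2 for IFNγ 1 and 100 ng/ml, and 1 for the combination against each of its parts. The 5 least responsive groups alone gave 2 from 6 to 12 h. The cause of these differences was not tested, beyond fewer libraries in the subsets.

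With 1 duration left out in turn, counts ran from 0 to 3 for IFNα1 and TGFβ, 1 to 2 for TNFα 10 ng/ml, 0 to 1 for IFNγ 1 and 100 ng/ml, 2 to 6 for the combination, and 0 to 2 for the combination against IFNγ or TNFα. For the slopes they ran from 0 to 1 for IFNγ, IFNα1 and TGFβ and 0 to 2 for the combination. With 1 quiet group left out, they ran from 0 to 2 from 6 to 12 h and 3 to 5 from 12 to 24 h. With 1 of the 12 groups left out, the durations gave 6 to 8, 3 to 4, 6 to 7 and 7 to 9 for the 3 steps and for 2 to 24 h. Prior counts of 0.5 and 5 were tried for the ratios per duration. The prior is scaled to each library's depth, so it could not turn the direction of a ratio, only its size. The furthest move was 1.78, for Per2 at 12 h with TNFα at 10 ng/ml, the library with 0 reads.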
